A study of Mus musculus with 4 samples.

Results

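The 6 genes described here serve zinc handling in the mouse: the metallothioneins Mt1 and Mt2, the transcription factor gene Mtf1, the zinc importer genes Slc39a14 and Slc39a8, and the zinc exporter gene Slc30a1. They were taken by symbol from the 30406 genes that all 4 libraries list, and were chosen with earlier results of these data known. Single cells came from the popliteal lymphatic vessels (PLVs), which drain the ankle and foot, and from the superficial saphenous vein beside them, with each library pooled from 3 mice of C57BL/6J background. The WT and the TNF-Tg library held male mice of 9 months, the TNF-Tg mice carrying a human TNF transgene that gives them inflammatory erosive arthritis, and cells of high forward and side scatter were sorted. The libraries tdT 1 and tdT 2 came from Cspg4-Cre;Ai9-tdTomato mice of both sexes over 8 months old, without the TNF transgene, in which Cre driven by Cspg4 marks mural cells, and tdTomato-positive cells were sorted. WT and TNF-Tg are 1 library each, made on separate days, so that genotype, day and pool cannot be told apart, no difference between them has a replicate, and no p-value is given for one.

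Metallothioneins are small cysteine-rich proteins that bind zinc and copper and buffer the free metal of the cell. MTF1 senses zinc and switches on metallothionein and Slc30a1 transcription through metal response elements, and metallothionein genes also respond to glucocorticoids and to cytokines of the acute phase. ZIP proteins, encoded by the Slc39a genes, move zinc into the cytoplasm, while ZnT proteins, encoded by the Slc30a genes, move it out; ZIP14, the product of Slc39a14, takes up zinc and iron and is known in liver as an acute phase gene driven by interleukin 6.

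Mt1 (ENSMUSG00000031765) and Mt2 (ENSMUSG00000031762) are protein-coding genes of 3 exons that lie next to each other on chromosome 8 of GRCm38, at chr8:94179082-94180327 and chr8:94172664-94173568, with 5513 bases between them. The 250 bases before the RefSeq start of each are shown because the genes were higher together in stromal cells of the TNF-Tg library. Capitals mark the core of the metal response element, searched as TGCACNC and TGCGCNC on both strands. The windows lie at chr8:94178839-94179088 and chr8:94172368-94172617, both on the plus strand (RefSeq, GRCm38.p6).
Mt1: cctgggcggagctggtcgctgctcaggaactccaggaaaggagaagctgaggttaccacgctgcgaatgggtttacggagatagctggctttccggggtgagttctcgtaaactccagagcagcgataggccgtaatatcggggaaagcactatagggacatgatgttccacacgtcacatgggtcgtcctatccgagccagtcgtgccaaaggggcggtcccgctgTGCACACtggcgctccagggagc
Mt2: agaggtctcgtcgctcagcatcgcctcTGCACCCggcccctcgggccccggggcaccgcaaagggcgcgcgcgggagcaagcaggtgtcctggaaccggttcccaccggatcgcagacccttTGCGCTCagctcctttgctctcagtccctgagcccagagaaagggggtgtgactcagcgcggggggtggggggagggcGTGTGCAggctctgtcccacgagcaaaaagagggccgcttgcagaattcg
The Mt1 window held 1 core and the Mt2 window held 3, against 21.4% of 32851 such windows with at least 1 and 1.26% with at least 3. The windows of Slc30a1 and of Mtf1 held 1 and 0 cores, and Slc39a8 had 0 and 1 in its 2 windows. By the principal starts of GENCODE vM21, the Mtf1 window and the Slc39a8 window with the core lie wholly inside the gene. The start that GENCODE vM21 gives for the principal Mt2 transcript lies 46 bases beyond the printed window, and that of Mt1 lies within its window. Both windows may lie upstream of the main start sites, and bases beyond either were not searched. The core counts therefore do not describe whole promoters. The other members lie at chr4:124802104-124849800 (Mtf1, ENSMUSG00000028890), chr14:70303469-70351425 (Slc39a14, ENSMUSG00000022094), chr3:135825279-135888572 (Slc39a8, ENSMUSG00000053897) and chr1:191906767-191913247 (Slc30a1, ENSMUSG00000037434).

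The libraries held 1504 (tdT 1), 454 (tdT 2), 5488 (WT) and 3391 (TNF-Tg) cells, with medians of 4932.5 to 12660 unique molecular identifiers (UMIs, each counting 1 captured RNA molecule) per cell. A cell was gated as stromal with at least 4 of 8 stromal markers such as Dcn and Pdgfra detected and at most 3 of 8 leukocyte markers such as Ptprc, and as a leukocyte by the reverse, which left 6.13% to 22.3% of cells ungated. Stromal cells were split by 9 markers each into LMC-type (Pi16, Myoc, Dpp4) and VSMC-type (Cxcl14, Mgp, Penk), after lymphatic and vascular muscle cells, with cells of neither kind kept apart as intermediate. Smooth muscle genes gave the muscle label little backing, in CPM (UMIs per 1000000 UMIs of the summed cells). Summed over 8 of them, WT had 38.6 CPM in LMC-type cells, with Des at 36.5, and 6.93 CPM in VSMC-type cells. TNF-Tg had 36.7 CPM, with Des at 28.6, and 16.5 CPM. The contractile genes Acta2 and Myh11 reached at most 5.24 and 1.24 CPM in both gates of WT, TNF-Tg and tdT 2. In VSMC-type cells of tdT 1 they were at 115.5 and 34.0 CPM. Over the libraries Des was at 9.74 to 38.9 CPM in LMC-type cells and at 1.24 to 12.0 CPM in VSMC-type cells. The study defined these cells by Cald1, Tpm1 and Pdgfrb. Those genes were at 214.4 to 297.2, 53.8 to 83.6 and 45.9 to 138.5 CPM in stromal cells over the libraries, against at most 1.93, 32.4 and 2.02 CPM in leukocytes. Muscle cells low in the stromal markers would have been left ungated here, before this check. The paper also points to its Cspg4-Cre reporter sort, to a Pdgfrb reporter overlapping smooth muscle actin protein, and to muscle-related transcription factors. It proposes low read depth of droplet sequencing and low expression in veins as possible reasons for scarce Acta2 and Myh11. The paper adds that some fibroblasts express Cald1 and Pdgfrb too. It could not fully exclude that these cells are myofibroblasts from nearby tissue. Barcodes shared by any pair of libraries numbered 0 to 5. The tdT 1 library stood apart, with over 10% mitochondrial UMIs in 516 of its cells, and tests across libraries are given with and without it. By the paper it was also sorted through a narrower nozzle and sequenced on another instrument than the other libraries.

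The metallothionein genes were far higher in stromal cells of the TNF-Tg library than in those of the WT library, whereas macrophages and monocytes differed far less between those libraries. In LMC-type cells Mt1 stood at 1596 CPM in WT (1385 cells) and at 7947 CPM in TNF-Tg (524 cells), beside 2275 CPM in tdT 1 and 691.5 CPM in tdT 2. That is a 4.98-fold ratio of TNF-Tg over WT (interval 4.91 to 5.04). Intervals given here are exact at 95% and cover counting error only, not the spread between mice or days. The TNF-Tg level was 3.49-fold above the highest of the 3 libraries without the transgene, which differed among themselves by 3.29-fold, and the mean of the tdT libraries was 1483 ± 1120 CPM (SD, n = 2). Mt2 in LMC-type cells was at 521.8 CPM in WT, 3497 CPM in TNF-Tg, 1052 CPM in tdT 1 and 142.2 CPM in tdT 2. Its ratio of TNF-Tg over WT was 6.70-fold (6.56 to 6.85). The 2 tdT libraries lay 7.40-fold apart in Mt2, a wider gap than the ratio itself, although TNF-Tg remained 3.32-fold above the higher of them.

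In VSMC-type cells the same genes were higher in TNF-Tg by a smaller ratio. Mt1 was at 2640 CPM in WT against 5417 CPM in TNF-Tg, a ratio of 2.05 (2.01 to 2.10), with 3467 CPM in tdT 1 and 1017 CPM in tdT 2. Mt2 was at 557.1 CPM in WT against 1848 CPM in TNF-Tg, a ratio of 3.32 (3.18 to 3.46), with 1098 CPM in tdT 1 and 127.3 CPM in tdT 2. For both genes TNF-Tg was the highest of the 4 libraries, yet it exceeded tdT 1 by only 1.56-fold and 1.68-fold. Where whole clusters of each library, built without the 6 members, replaced the gate, the log2 ratios of Mt1 and Mt2 in VSMC-type cells were 0.46 and 0.74 in place of 1.04 and 1.73, both under 2-fold. In LMC-type cells the same change gave 2.31 for Mt1 against 2.32 by the gate. Intermediate stromal cells, 225 of WT and 182 of TNF-Tg, held 2248 and 4009 CPM of Mt1 and 21.4 and 64.0 CPM of Slc39a14.

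**Figure D1:**
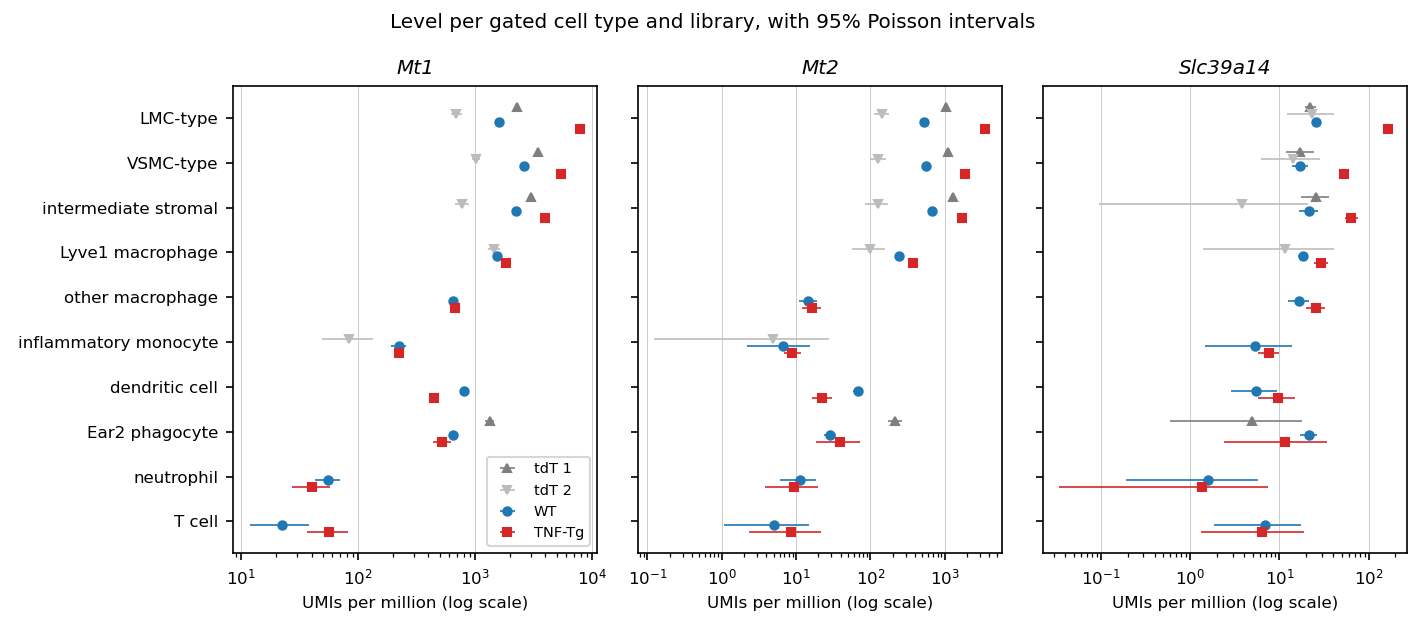
Levels of Mt1, Mt2 and Slc39a14 in CPM (log axis) in 10 gated cell types (rows) and 4 libraries (points), with 95% Poisson intervals; types with under 20 cells in a library and levels of 0 are not drawn. TNF-Tg is the highest library in all 3 stromal rows, and the WT and TNF-Tg points lie within 1.62-fold of each other in the macrophage and inflammatory monocyte rows.

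Of the 6 members, 3 were at least 2-fold higher in TNF-Tg than in WT in LMC-type cells, namely Mt1, Mt2 and Slc39a14, and 0 were at least 2-fold lower. Of the 12303 genes with at least 20 UMIs over both libraries, 4.50% passed the rule upward and 6.51% downward. Ranked by ratio from the highest, Mt2 stood at place 54, Slc39a14 at place 58 and Mt1 at place 92 of those genes. The same 3 members passed upward and 0 downward in VSMC-type cells, against 3.81% and 12.4% of 10900 genes. In all leukocytes together 0 members passed upward and 1, Slc39a8, downward, against 6.41% and 13.4% of 13378 genes. All 6 members had at least 20 UMIs in each of these 3 comparisons. The paper had already named Mt2 and Mt1 among the genes most raised in TNF-Tg lymphatic and vascular muscle cells of these data. The shares and ranks are therefore a description and not a test of unselected genes.

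Summed over all leukocytes, Mt1 was lower in TNF-Tg, at 602.6 CPM against 1129 CPM in WT (ratio 0.534, 0.523 to 0.545), and Mt2 was at 84.8 CPM against 149.7 CPM (0.566, 0.537 to 0.597). The mix of leukocytes differed between the libraries, with 1443 Lyve1 macrophages and 66 inflammatory monocytes in WT and 310 and 608 in TNF-Tg. Within macrophages and inflammatory monocytes the levels lay much closer. Mt1 was at 1549 CPM in WT against 1826 CPM in TNF-Tg in Lyve1 macrophages, a ratio of 1.18 (1.15 to 1.21). Mt2 was at 240.0 and 372.2 CPM there, a ratio of 1.55 (1.46 to 1.64). Both genes were thus higher in Lyve1 macrophages of TNF-Tg, as in stromal cells, by a smaller ratio. Mt1 was at 653.1 and 672.3 CPM in other macrophages and at 222.4 CPM in both libraries in inflammatory monocytes. With equal weight for each of 8 leukocyte types, the stromal minus leukocyte difference of the log2 ratio was 2.02 for Mt1 and 2.18 for Mt2, in place of 2.73 and 3.14 with all leukocytes summed. The leukocyte side was then -0.20 for Mt1, and for Mt2 it turned from -0.82 to 0.13.

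Dendritic cells, unresolved leukocytes and T cells differed more. In dendritic cells Mt1 was at 808.2 CPM in WT against 447.8 CPM in TNF-Tg, and Mt2 was at 67.7 and 22.6 CPM, a ratio of 0.333 (0.234 to 0.466). Unresolved leukocytes had an Mt1 ratio of 0.543 (0.504 to 0.585). In T cells, where Mt1 is low, 13 UMIs in WT and 26 in TNF-Tg gave a ratio of 2.52 (1.25 to 5.34). Neutrophils had 55.0 CPM of Mt1 in WT against 40.6 CPM in TNF-Tg. Dcn, a stromal matrix gene that leukocytes lack, stood in Lyve1 macrophages of WT at 0.286% of its stromal level, and the same share of stromal Mt1 comes to 5.28 CPM. Reckoned in this way, free stromal RNA comes to 8.30 CPM of the Mt1 in neutrophils of WT and 19.0 CPM in those of TNF-Tg. It comes to 7.57 CPM of the Mt1 in T cells and 6.27 CPM of the Mt2 in dendritic cells of TNF-Tg.

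The balance of the gene pair differed by cell type, with Mt2 taking a larger share in stromal cells than in macrophages. Mt2 made up 24.6% of the Mt1 and Mt2 UMIs in LMC-type cells of WT and 30.6% in TNF-Tg (30.2% to 30.9%, exact binomial interval). In VSMC-type cells it made up 17.4% for WT against 25.4% for TNF-Tg. In Lyve1 macrophages the share was 13.4% for WT against 16.9% for TNF-Tg, and in other macrophages it was 2.18% and 2.41%. The share differed as widely without the transgene, at 31.6% in LMC-type cells of tdT 1 and 17.1% in tdT 2. Together the pair took 0.212% of all UMIs of LMC-type cells in WT and 1.14% in TNF-Tg.

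Mtf1, the zinc-sensing activator of these genes, was detected at a low level. In LMC-type cells it was at 15.3 CPM in WT against 12.0 CPM in TNF-Tg (ratio 0.779, 0.609 to 0.988), beside 18.1 CPM in tdT 1 and 13.6 CPM in tdT 2. In VSMC-type cells it was at 9.60 CPM in WT against 11.7 CPM in TNF-Tg (ratio 1.22, 0.808 to 1.84). All leukocytes together had 19.3 CPM in WT against 20.9 CPM in TNF-Tg. Mtf1 passed 2-fold in none of these 3 comparisons, and its lowest ratio with an interval clear of 1 was in inflammatory monocytes, at 34.8 CPM in WT from 26 UMIs and 17.9 CPM in TNF-Tg.

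Slc39a14 encodes the importer ZIP14. Of the 3 members that were higher in TNF-Tg, it had the most even level without the transgene in LMC-type and VSMC-type cells. In intermediate stromal cells it was at 21.4 CPM in WT, 25.5 CPM in tdT 1 and 3.78 CPM in tdT 2, the last from 1 UMI. In LMC-type cells it was at 25.4 CPM in WT, 22.3 CPM in tdT 1 and 23.4 CPM in tdT 2, so that the 3 libraries without the transgene spanned 1.14-fold and the tdT libraries had a mean of 22.9 ± 0.732 CPM (SD, n = 2). In TNF-Tg it was at 166.0 CPM, a ratio over WT of 6.53 (5.91 to 7.23). In VSMC-type cells it was at 17.1 CPM in WT, 17.2 CPM in tdT 1, 14.3 CPM in tdT 2 and 53.4 CPM in TNF-Tg, a ratio of 3.13 (2.45 to 4.02). The VSMC-type ratio depended on where cells were placed: with clusters in place of the gate it turned to -0.17 on the log2 scale, from 1.65. Among leukocytes Slc39a14 was at 18.2 CPM in WT against 29.6 CPM in TNF-Tg in Lyve1 macrophages (ratio 1.62, 1.31 to 2.00) and at 16.5 and 25.6 CPM in other macrophages. All leukocytes together had 16.1 and 14.0 CPM, with 3.37 CPM in tdT 1 and 2.25 CPM in tdT 2, a span of 7.14-fold without the transgene. The tdT levels rest on few UMIs, from 161 and 170 leukocytes.

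The share of cells in which Slc39a14 was seen moved with its level. With every cell thinned to 3000 UMIs, 6.52% of LMC-type cells of WT had a UMI of Slc39a14 (5.27% to 7.96%, 1365 cells deep enough), against 21.7% in TNF-Tg (18.2% to 25.5%, 517 cells). Unthinned the shares were 29.5% and 42%, at median depths of 16139 and 12427 UMIs. In neutrophils, taken as a type that lacks the gene, the thinned share was 0.437% in WT and the unthinned share 0.593%, at a median depth of 3543 UMIs.

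Slc39a8, which encodes the importer ZIP8, rested on few UMIs. LMC-type cells had 78 UMIs in WT (3.46 CPM) and 15 in TNF-Tg (2.06 CPM), a ratio of 0.596 whose interval of 0.318 to 1.04 includes 1. All stromal cells together had 106 UMIs in WT (3.39 CPM) and 23 in TNF-Tg (1.70 CPM), a ratio of 0.503 (0.305 to 0.794). The tdT 1 and tdT 2 levels there were 4.72 and 4.49 CPM, so that TNF-Tg was the lowest library. Lyve1 macrophages had 5.09 CPM in WT against 5.38 CPM in TNF-Tg, while all leukocytes together had 2.94 and 1.36 CPM. Slc30a1, which encodes the plasma membrane exporter ZnT1, was at 6.65 CPM in WT against 8.52 CPM in TNF-Tg in LMC-type cells (ratio 1.28, 0.937 to 1.73). It was at 6.40 and 6.24 CPM in VSMC-type cells, beside 4.70 CPM in tdT 1 and 8.96 CPM in tdT 2. In all leukocytes it was at 20.2 CPM in WT against 12.0 CPM in TNF-Tg, and with equal weight for each of 8 leukocyte types the log2 ratio was -0.53. Within types it was at 23.5 and 24.5 CPM in Lyve1 macrophages. Inflammatory monocytes had 16.1 and 8.39 CPM, a ratio of 0.522 (0.278 to 1.07). Dendritic cells had 18.0 and 8.02 CPM, from 43 and 16 UMIs, a ratio of 0.447 (0.235 to 0.809).

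**Figure D2:**
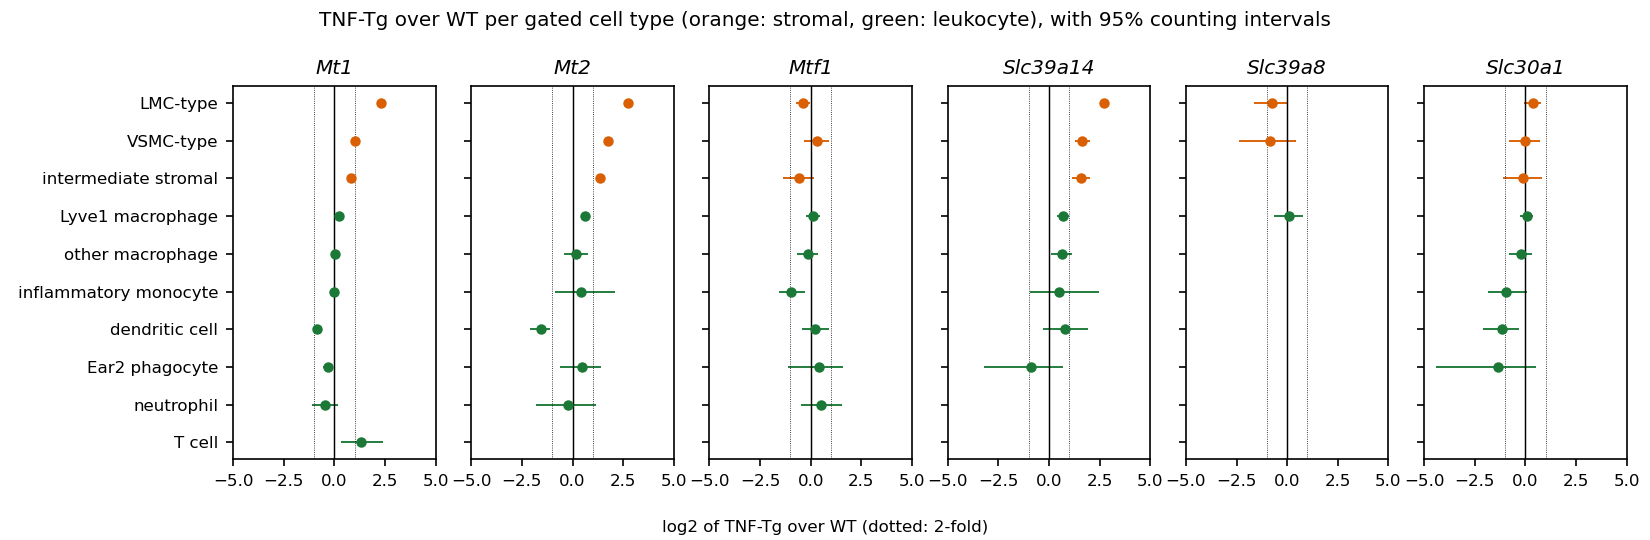
Ratio of TNF-Tg over WT on the log2 scale (x axis, dotted lines at 2-fold) for each member (panels) in 10 gated types (rows), with exact 95% counting intervals; rows with under 20 UMIs over both libraries or a count of 0 in either library are not drawn. The orange stromal points of Mt1, Mt2 and Slc39a14 lie to the right of 0, while those of Mtf1 and Slc30a1 scatter around it.

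The higher LMC-type level in TNF-Tg was spread unevenly over single cells. The lower quartile of Mt1 in LMC-type cells was 6.87 UMIs per 10000 UMIs of the cell in WT and 8.23 in TNF-Tg, and the medians were 11.5 and 20.6. The upper quartile was 19.6 in WT and 69.0 in TNF-Tg, and the 95th percentile was 42.9 and 222. Of the TNF-Tg cells, 36.1% lay above the 95th percentile of WT for Mt1, 40.8% for Mt2 and 29.2% for Slc39a14. Above the same marks, in the same order, lay 12.5%, 18.8% and 5.59% of the tdT 1 cells. In tdT 2 the shares were 0.0%, 0.0% and 8.89%, of 90 cells. Each library pooled 3 mice, and cells could not be assigned to a mouse.

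**Figure D3:**
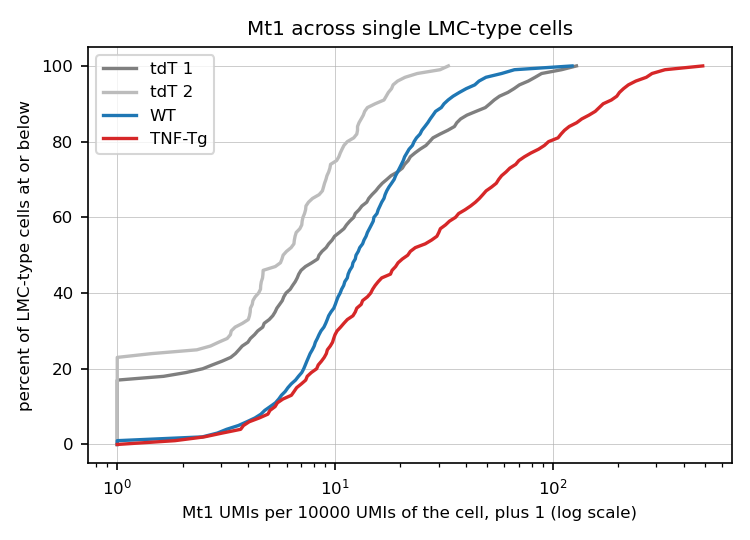
Percent of LMC-type cells (y axis) at or below a given Mt1 level, in UMIs per 10000 UMIs of the cell plus 1 (log axis), 1 line per library. The TNF-Tg line runs close to that of WT at the low end and reaches its 95th percentile at 222, against 42.9 in WT.

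Among LMC-type cells of the TNF-Tg library Mt1, Mt2 and Slc39a14 were high in the same cells. Mtf1 did not rise with them, and Slc39a8 and Slc30a1 rested on too few UMIs to tell. LMC-type cells were ranked by Mt1 and divided into quartiles of 131 cells. From the lowest to the highest quartile Mt2 went from 240.4 to 7653 CPM and Slc39a14 from 10.5 to 363.8 CPM, while Mtf1 went from 18.0 to 10.6 CPM, Slc39a8 stayed at or below 2.26 CPM and Slc30a1 went from 9.74 to 7.55 CPM. Mt1 itself, on which the cells were ranked, was at 486.9 CPM in the lowest quartile, close to 450.5 CPM in the lowest quartile of WT. In WT the quartiles held 21.6, 28.5, 22.4 and 28.8 CPM of Slc39a14, and in tdT 1, whose upper quartile reached 5198 CPM of Mt1, they held 16.4, 26.8, 20.4 and 22.6 CPM. In LMC-type cells Mt1 and Mt2 thus moved together over the quartiles of these 3 libraries, and Slc39a14 was higher with them in TNF-Tg. In VSMC-type cells of TNF-Tg Slc39a14 was at 27.5, 16.3, 55.7 and 91.8 CPM from the lowest to the highest Mt1 quartile. Over LMC-type cells, Pearson's r between log values of Mt1 and Mt2 was 0.88 in TNF-Tg (524 cells) and 0.64 in WT (1385 cells). Each pair of values shares its cell's depth.

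Other measures moved with the Mt1 quartile in LMC-type cells of TNF-Tg. The median depth went from 10750 UMIs per cell in the lowest to 19757 in the highest quartile, Dcn from 17011 to 9646 CPM, and the summed LMC-type markers from 9738 to 5243 CPM. The summed leukocyte markers were at 47.2 and 49.1 CPM. Saa3, an acute phase gene, went from 16.5 to 1009 CPM, and Tsc22d3, a target of the glucocorticoid receptor, from 67.4 to 6.42 CPM. Their part in the result was not tested.

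**Figure D4:**
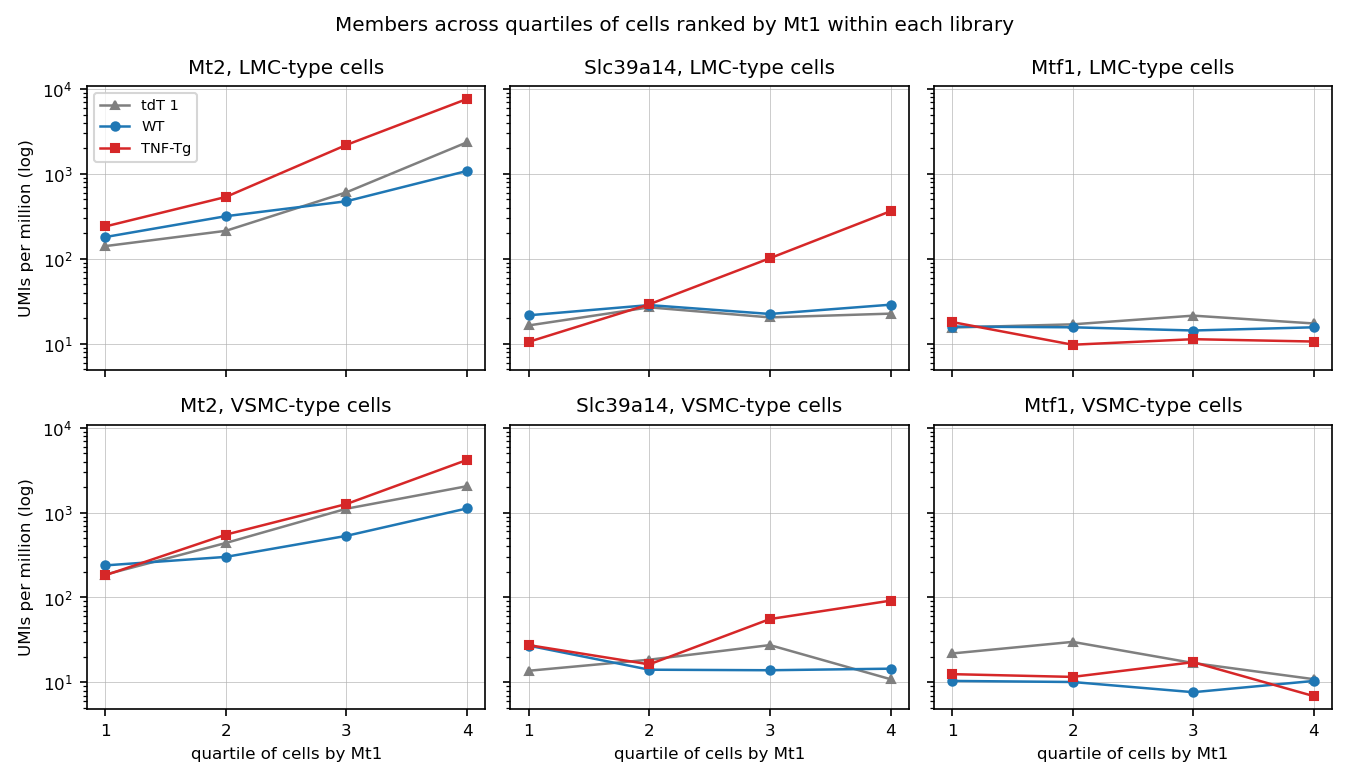
Levels of Mt2, Slc39a14 and Mtf1 in CPM (log axis, shared by all panels) in quartiles of cells ranked by Mt1, for LMC-type (top) and VSMC-type cells (bottom) of tdT 1, WT and TNF-Tg. In LMC-type cells Mt2 climbs with the quartile in each library, while Slc39a14 climbs from 10.5 to 363.8 in TNF-Tg and stays between 21.6 and 28.8 in WT.

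Clusters built separately in each library without the 6 members also set such cells apart, as a description. LMC-type cells of TNF-Tg fell into a cluster of 239 cells (leading genes Mcoln2, Chl1 and Ptx3) and a cluster of 253 cells (leading genes Edn1, Myoc and Pla1a), of which 95% and 95.3% were gated as LMC-type. The former held 12587 CPM of Mt1, 5593 CPM of Mt2 and 280.6 CPM of Slc39a14. The latter held 1378 CPM, 486.1 CPM and 17.8 CPM, and thus lay below the 3 LMC-type clusters of WT, in which Mt1 ran from 1457 to 1753 CPM and Slc39a14 from 21.6 to 28.4 CPM. Slc30a1 was at 9.42 CPM in the former cluster and 5.57 CPM in the latter. A further TNF-Tg cluster of 290 stromal cells between the types, 40.7% of them gated as VSMC-type, held 6062 CPM of Mt1 and 74.8 CPM of Slc39a14, whereas the VSMC-type cluster of 204 cells held 3833 and 15.2 CPM. Outside LMC-type cells the genes could thus come apart. A TNF-Tg cluster of 75 stromal cells held 75.0 CPM of Slc39a14 with only 1814 CPM of Mt1 and 640.8 CPM of Mt2. Each of these clusters comes from a single library, and no test was made between them.

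**Figure D5:**
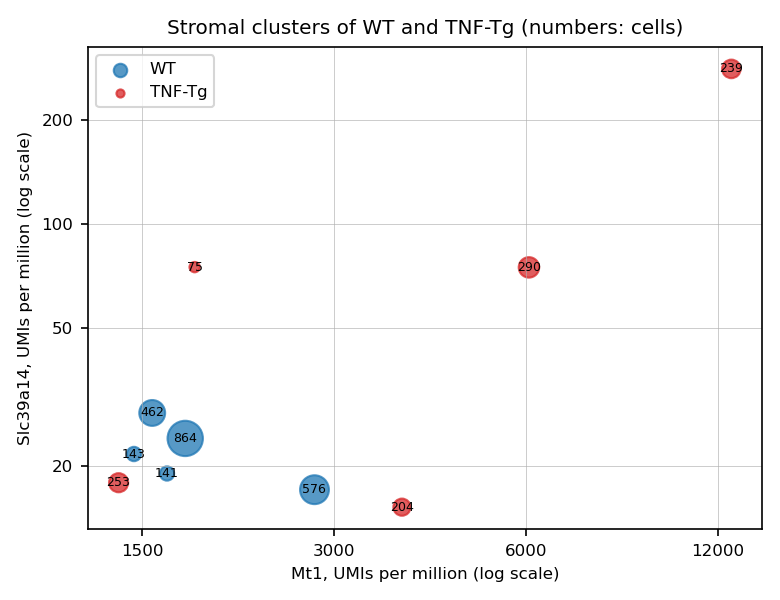
Mt1 (x axis) against Slc39a14 (y axis), both in CPM on log axes, for the stromal clusters of WT (blue) and TNF-Tg (red); point area follows the number of cells, which is printed. The 5 WT clusters lie together at low Slc39a14, and the TNF-Tg cluster of 239 cells stands highest in both genes.

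Stromal cells and leukocytes were present in every library, which allowed a test across the 4 libraries (edgeR quasi-likelihood test with library as a block, Benjamini-Hochberg adjustment, FDR below 0.01). Of the members, 2 were higher in stromal cells and 1 was lower, while 23.6% and 20.7% of 12714 genes passed in those directions. Mt2 was higher in stromal cells in 4 of 4 libraries, by 8.89-fold in tdT 1, 4.06-fold in tdT 2, 3.63-fold in WT and 32.0-fold in TNF-Tg, with a fitted log2 difference of 3.11 ± 0.55 (SE) and an adjusted p of 0.00216. Slc39a14 was higher in 4 of 4 by 1.46-fold to 8.29-fold, with a log2 difference of 2.09 ± 0.49 and an adjusted p of 0.00839 in the edgeR fit. Its folds of 6.48 in tdT 1 and 6.98 in tdT 2 rest on few leukocyte UMIs, at 3.37 and 2.25 CPM in 161 and 170 leukocytes. In WT, Lyve1 macrophages (18.2 CPM) and phagocytes gated by genes such as Ear2 (21.5 CPM) were not below VSMC-type cells (17.1 CPM). LMC-type cells of WT were at 25.4 CPM. Slc30a1 was lower in 4 of 4, the stromal level being 0.313 to 0.640 of the leukocyte level, with a log2 difference of -1.11 ± 0.24 and an adjusted p of 0.00551 in the edgeR fit. The leukocyte level varied by type. In TNF-Tg Lyve1 macrophages were at 24.5 CPM, but inflammatory monocytes (8.39 CPM) and dendritic cells (8.02 CPM) were not above LMC-type cells (8.52 CPM). In WT these monocytes and dendritic cells were at 16.1 and 18.0 CPM, above 6.65 CPM in LMC-type cells.

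Mt1 was higher in stromal cells than in summed leukocytes in 4 of 4 libraries, by 1.64-fold to 10.9-fold, but missed the threshold with an adjusted p of 0.0144 in edgeR. By type this did not always hold. Lyve1 macrophages of tdT 2 (44 cells) were at 1462 CPM of Mt1, above all stromal cells of that library at 843.2 CPM. In the other libraries they lay below all stromal cells, in WT at 1549 CPM against 1849 CPM, with LMC-type cells at 1596 CPM. Mtf1 and Slc39a8 did not pass, with adjusted p of 0.174 and 0.208 in edgeR and log2 differences of -0.35 and 0.92. The calls were sensitive to the libraries: without tdT 1 none of the 6 members passed in edgeR (adjusted p 0.0287 for Mt2, 0.0498 for Slc39a14, 0.0124 for Slc30a1). Of all genes, 40.6% still passed in either direction without tdT 1, and 36.2% to 38.9% with another library left out. Without tdT 2 only Mt2 passed, at an adjusted p of 0.00765 in edgeR, and without WT only Mt2 (0.00422) and Slc39a14 (1.13e-05). Without TNF-Tg Mt1, Mt2 and Slc30a1 passed in edgeR, with adjusted p of 0.00623, 0.00063 and 0.00459, and Slc39a14 did not, at 0.0387.

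LMC-type and VSMC-type cells were compared in the same way. Here 1 member was higher in LMC-type cells and 0 were lower, while 6.72% and 8.32% of 10787 genes passed upward and downward in edgeR. Slc39a14 was higher in LMC-type cells in 4 of 4 libraries, by 1.30-fold in tdT 1, 1.63-fold in tdT 2, 1.49-fold in WT and 3.11-fold in TNF-Tg, with a log2 difference of 0.85 ± 0.19 and an adjusted p of 0.00358. DESeq2 gave it an adjusted p of 0.0150, and edgeR without the library block 0.660. Without tdT 1 the adjusted p in edgeR was 0.000484. Without TNF-Tg its log2 difference was 0.51 and the call was lost, with an adjusted p of 0.0879 in edgeR. Mt1 was higher in VSMC-type cells in the 3 libraries without the transgene, the LMC-type level being 0.605 to 0.680 of the VSMC-type level, and higher in LMC-type cells in TNF-Tg, by 1.47-fold. It did not pass over the 4 libraries (adjusted p 0.0993 in edgeR), nor without TNF-Tg (log2 difference -0.63, adjusted p 0.011 in edgeR). At an unadjusted p under 0.05, 1 member, Mt1, was lower in LMC-type cells and 1, Slc39a14, was higher, by edgeR and by DESeq2. Over all 10787 genes, 3733 by edgeR and 2833 by DESeq2 passed that mark in either direction. Mt2 was 1.89-fold higher in LMC-type than in VSMC-type cells of TNF-Tg and within 0.937-fold to 1.12-fold in the other 3.

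Among the other measured zinc transporters none was 2-fold higher in either stromal type, and 1, Slc39a10 in VSMC-type cells, was 2-fold lower. Of 14 ZIP genes, 10 had at least 20 UMIs in LMC-type cells, of which 1 passed upward and 0 downward, with a median log2 ratio of 0.13 against -0.04 over all genes. Of all genes there, 4.50% passed upward and 6.51% downward. Slc39a1, a plasma membrane importer, was at 66.9 CPM in WT against 116.8 CPM in TNF-Tg, and Slc39a7, which moves zinc out of the endoplasmic reticulum, was at 69.6 and 94.6 CPM. In VSMC-type cells 1 of 10 ZIP genes passed upward, Slc39a14, and 1 downward, Slc39a10, from 21.0 to 8.98 CPM. Of all genes there, 3.81% passed upward and 12.4% downward. Of 10 ZnT genes, 6 were measured in each stromal type and 0 passed in either direction, with median log2 ratios of 0.01 in LMC-type and -0.30 in VSMC-type cells against -0.04 and -0.21 over all genes. In all leukocytes 12 ZIP genes were measured, of which 1 passed upward and 2 downward, against 6.41% and 13.4% of all genes. Mt3 and Mt4, the remaining metallothionein genes of the cluster, did not reach 20 UMIs in either type.

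Lists of genes of pathways known to act on metallothioneins, and of genes that tissue dissociation induces, were compared between WT and TNF-Tg. They were chosen with earlier results of these data known, and their counts are a description. Whether any of them has a part in the metallothionein levels was not tested. Of 8 NRF2 targets, which answer to oxidative and electrophile stress, 7 were measured, of which 0 passed 2-fold in LMC-type cells and 1, Gclc, was lower in VSMC-type cells, with Hmox1 at 12.9 CPM in WT against 20.1 CPM in TNF-Tg in LMC-type cells. Of 9 genes induced by glucocorticoids, 5 were at least 2-fold lower in LMC-type cells and 7 in VSMC-type cells, against 6.51% and 12.4% of all genes, and 0 were higher. The paper had already named Zbtb16 and Klf9, both on this list, as lower in these data. Tsc22d3 was at 172.1 CPM in WT against 38.8 CPM in TNF-Tg in LMC-type cells, and Fkbp5 was at 106.6 and 45.4 CPM. Without the transgene tdT 2 had 29.2 CPM of Tsc22d3 and 13.6 CPM of Fkbp5, both below the TNF-Tg level, beside 131.2 and 48.1 CPM in tdT 1. Klf9, Ddit4 and Zbtb16 were also lower in both, with log2 ratios of -1.56, -1.58 and -3.09 in LMC-type cells. LMC-type cells of tdT 2 had 136.3 CPM of Klf9 and 0.0 CPM of Ddit4, below 176.0 and 5.22 CPM in TNF-Tg. Zbtb16 was at 27.3 CPM in tdT 2, above 20.3 CPM in TNF-Tg. In all leukocytes 7 of the 9 glucocorticoid-induced genes were at least 2-fold lower and 1 was higher, against 13.4% and 6.41% of all genes. Of 9 genes of the interleukin 6 and STAT3 response, 6 were at least 2-fold higher in LMC-type cells and 2 in VSMC-type cells, against 4.50% and 3.81% of all genes. In all leukocytes 2 of the 8 measured were higher, Saa3 and Il6, with log2 ratios of 2.41 and 2.13, and 1 was lower. Of all genes there, 6.41% passed upward and 13.4% downward. Lbp, on this list, had already been named by the paper as higher in lymphatic muscle cells. Saa3 had 27 UMIs in LMC-type cells of WT and 2806 in those of TNF-Tg, with at most 0.61 CPM in the tdT libraries. Il6 was at 2.13 CPM in WT, 19.0 CPM in TNF-Tg, 5.84 CPM in tdT 2 and 86.3 CPM in tdT 1, so that TNF-Tg was not the highest library. Of 14 genes that tissue dissociation induces, 1 was higher and 1 lower in each stromal type, Ier3 being the one that was higher in both, at 43.6 CPM in WT against 118.9 CPM in TNF-Tg in LMC-type cells, below 198.0 CPM in tdT 1.

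Across 36 sums of a gated type in a library with at least 20 cells, the genes most like Mt1 by Pearson's r of log2(CPM + 1) were Anxa4 (0.904), Mgat4b (0.899), Lima1 (0.897), Mt2 (0.896) and Ptov1 (0.893), out of 8242 genes. By Spearman's rho Mt2 was first, at 0.946. The genes most like Slc39a14 were Flot2 (0.805), Tsen34 (0.8), Bsg (0.788), Pdlim4 (0.787) and Morf4l2 (0.783), with Mt1 at place 32 (0.736). Mtf1 had an r of 0.352 with Mt1 and 0.029 with Slc39a14, and a rho of the opposite sign, at -0.332 and -0.402. These points share libraries and depth, and the values are given as a description.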

How the data were processed

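The authors aligned the reads to mm10 and deposited, for each library, a matrix of UMI counts per gene and cell. The matrix headers name Cell Ranger 3.1.0 for tdT 1 and 6.0.1 for the other libraries, and the submitters' processing notes name Cell Ranger 3.1, 3.1.0 and Seurat 4.0.3. The deposited counts are not normalized and depth per library was 2357031 to 68773605 UMIs. The gates, sums per type and library, and CPM were computed here with Python 3.11.15 and scanpy 1.11.5 (Scrublet, clusters). Tests across genes used edgeR 4.0.16 in R 4.3.3, after filtering low counts, on 8 sums of 4 libraries, with DESeq2 1.42.0 as an alternative. The edgeR test was also run on simulated counts. There the difference between cell types was equal in every library, so that run does not bear on members whose folds differ by library. WT and TNF-Tg were compared by ratios of UMIs with exact conditional binomial intervals. Levels carry exact Poisson intervals and shares exact Clopper-Pearson intervals. A gene counted as higher or lower past 2-fold with at least 20 UMIs over both libraries.

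Named are the 6 members everywhere, list genes past 2-fold in the same direction in both stromal types, and the 5 genes most like Mt1 and Slc39a14. Gclc, Hmox1, Slc39a1, Slc39a7, Slc39a10, Cald1, Tpm1 and Pdgfrb fall outside that rule and were chosen after their values were seen. The members and lists were chosen with earlier results of these data known. The human TNF transgene is not among the counted genes. Mouse Tnf ranged from 4.26 CPM (WT) to 15.0 CPM (tdT 1), with TNF-Tg at 10.8 CPM. Scrublet marked 0 to 2.5% of cells per library as doublets, and under 0.5% in both tdT libraries. Mt1 and Mt2 are similar in sequence and reads shared by them were not examined. The tdT libraries came from separate mice on separate days, and by the paper also differed in sorting nozzle, collection tube handling, viability steps and sequencer. Their spread holds all of these.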

Additional observations from a re-analysis of the deposited data

Results flagged for a closer look

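With all leukocytes summed, Mt1 and Mt2 lay on opposite sides of 1 in stromal cells and in leukocytes of the same 2 libraries. The log2 ratio of TNF-Tg over WT was 1.82 in stromal cells and -0.91 in leukocytes for Mt1, a difference of 2.73. For Mt2 it was 2.32 and -0.82, a difference of 3.14. With 1 library per genotype the difference was not tested. With each of 8 leukocyte types given equal weight, the differences were 2.02 and 2.18, and the leukocyte side was -0.20 for Mt1 and 0.13 for Mt2, so that Mt2 was no longer on opposite sides.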

How the results depend on the processing

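The directions of the Mt1, Mt2 and Slc39a14 ratios in LMC-type cells held under the 8 alternatives tried, at 1.86 to 2.38, 2.30 to 2.80 and 2.17 to 2.81 on the log2 scale. In the order Mt1 and Mt2 in LMC-type, then Mt1 and Mt2 in VSMC-type cells, a stricter gate gave 2.38, 2.80, 0.97 and 1.62, a mean over cells 1.86, 2.30, 0.79 and 1.33, and leaving out the 5% of cells highest in the gene 2.14, 2.66, 0.83 and 1.47. Slc39a14 came to 2.17 and 1.12 as a mean over cells. TMM and DESeq2 size factors gave 2.35 and 2.35 for Mt1 in LMC-type cells, 1.23 and 1.25 in VSMC-type cells, and 1.92 and 1.94 for Mt2 there. Clusters in place of the gate gave 0.46 (Mt1), 0.74 (Mt2) and -0.17 (Slc39a14) in VSMC-type cells. There the clusters put 290 TNF-Tg cells of high Mt1 between the types. The stromal minus leukocyte difference was 2.44, 2.88 and 2.09 for Mt1, Mt2 and Slc39a14 as a mean over cells, and 2.02, 2.18 and 2.06 with equal weight for each leukocyte type. Leaving out cells of low quality or predicted doublets moved none of these beyond their counting interval.

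Between LMC-type and VSMC-type cells edgeR called 1622 genes, 298 without the library block and 991 to 1626 with a library left out, the fewest without WT. Between stromal cells and leukocytes it called 5629, and 4369 to 5388 with a library left out. Between the 2 stromal types the direction turned for Mt2 without TNF-Tg (range with a library left out -0.02 to 0.27), for Mtf1 without WT (-0.05 to 0.39) and for Slc39a8 without tdT 1 (-0.41 to 0.09), none of which had passed. With no filter Mt2 and Slc39a14 lost the call between stromal cells and leukocytes (adjusted p 0.0323 and 0.0246 in edgeR), without the library block Slc39a14 lost it too (0.0333), and DESeq2 called Mt1 there with an adjusted p of 0.00178. The cause of these changes was not tested. At 1500 UMIs per cell the share of LMC-type cells with Slc39a14 was 3.71% in WT and 13.3% in TNF-Tg, and of VSMC-type cells in TNF-Tg 4.93%. With at least 100 UMIs, 1 gene of the interleukin 6 list passed in VSMC-type cells, in place of 2. The library block of the tests pairs the cell types of a library. Depth limits Slc39a8, Slc30a1 and Mtf1, whose ratios rest on 15 to 346 UMIs per library in LMC-type cells.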
